A study of Arabidopsis thaliana with 6 samples.

Results

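Pentatricopeptide repeat (PPR) genes with a predicted miRNA site were described together with the miRNAs that hold those sites. A gene was a member when the deposited target sheet described it as pentatricopeptide or, as a word, PPR. This gave 136 PPR genes of 7800 genes with a predicted site, and 89 of the 142 distinct miRNA sequences of the table had a site in at least 1 of them. With PPR also matched inside other words the count was 146 genes, since 10 genes described with the word suppressor then entered. Those 10 were set aside. Small RNA was sequenced from the upper part of leaf explants of Arabidopsis thaliana, with 3 libraries of the wild type Col-0 and 3 of ein2-1, a mutant in EIN2, which relays the ethylene signal and without which the plant does not respond to ethylene. Both genotypes came from seedlings of 14 days that were held under water for 1 h, and their explants then spent 7 days on callus-inducing medium (CIM). Total counts over the listed miRNA entries were 940058, 559411 and 569132 in the Col-0 libraries and 1163907, 1882664 and 1430472 in those of ein2-1. With each distinct sequence counted once they were 333025 to 556692 and 606476 to 987089. Every ein2-1 library was thus deeper than every Col-0 library, so that depth and genotype cannot be told apart. No library went without submergence or without CIM, so neither can be assessed. The table lists miRNAs alone, with no value for EIN2 or for a marker of leaf or callus cells, so that neither genotype nor tissue could be checked, and no PPR mRNA was measured.

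PPR proteins are a very large family of land plants. Most are carried into mitochondria or chloroplasts, where a row of degenerate repeats of about 35 amino acids binds RNA base by base and directs its editing, splicing, end processing or translation. miR161 and miR400 are known in Arabidopsis for sites in PPR mRNAs, and some of these mRNAs are turned into secondary small interfering RNAs after cleavage. A predicted site carries an expectation, a penalty that is 0 for full complementarity and grows with mismatches, and a mode, cleavage or translation. A site is a prediction from sequence and was not measured here.

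The miRNAs below are those the results turn on, printed 5′ to 3′ with the seed, bases 2 to 8, in capitals. Those named unannotated matched no annotated MIR gene on its own strand and are numbered by their entry in the table. Of the 89 sequences with a PPR site, 33 were unannotated, and 26 of these 33 were 24 nt long. They are called miRNAs here because the table lists them, and whether they are miRNAs was not tested.
miR400: uAUGAGAGuauuauaagucac
miR161.2: uCAAUGCAuugaaagugacu
miR396a-5p: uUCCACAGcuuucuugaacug
miR840-5p: aCACUGAAggaccuaaacuaac
miR866-3p: aCAAAAUCcgucuuugaaga
unannotated 268: aUUCCAGAgauuuguagauucua
unannotated 17: gAUGAUGAugaugaugaauu
None of these 7 shared a seed. Among the 89 miRNAs there were 85 seeds, of which 4 were shared by a pair, such as miR397a with miR397b. On the TAIR10.1 reference, the miR161.2 sequence matched once, at chr1:17825722-17825741 on the plus strand, within the MIR161 gene AT1G48267. The miR400 sequence matched at 2 places. One was chr1:11785947-11785967 on the plus strand, in the MIR400 gene, which overlaps AT1G32583. The other was chr1:2014950-2014970, opposite to the coding strand of AT1G06580, where it is the complement of the site predicted in that gene. A read of miR400 alone cannot be assigned between them.

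Among the miRNAs of the table, the sites were concentrated on miR400 and miR161.2. miR161.1 was not in the table, so it could not be ranked. Counting each gene and miRNA once, there were 211 PPR pairs. miR400 held 40 of them and miR161.2 held 24, together 30.3% of the pairs, while they held 1.3% of the 9650 pairs on genes that were PPR neither by description nor in the reference. PPR genes made up 35.7% of the 112 genes predicted for miR400 and 21.4% of the 112 predicted for miR161.2. Over the other 140 miRNAs the share was 1.5%, with the highest value, 8.06%, in miR840-5p, and 53 of the 140 had no member gene. All of these shares count PPR genes by description. Some of the 53, such as miR319a/b and miR827, had sites in genes that only the reference annotates as PPR. For scale, PPR genes by description made up 1.74% of the 7800 genes with a site, and their pairs 2.11% of all 10000 pairs. The reference annotates PPR more widely, in 492 of its 27562 protein-coding genes (1.79%), of which 226 had a site. That last share is therefore not on the same definition as the others. The 5 leading miRNAs, which add miR396a-5p, unannotated 268 and miR840-5p with 5 genes each, held 37.4% of PPR pairs and reached 58 of the 136 genes, or 42.6%. The 5 leading miRNAs of the other genes, miR156 products among them, held 5.99% of those genes' pairs. Below the leaders the distribution was flat, with at most 4 PPR genes for a miRNA. With the leaders included, 17 of the 89 miRNAs held 3 or more PPR genes, 21 held 2 and 51 held 1. Unannotated sequences held 48 of the 211 PPR pairs.

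**Figure D1:**
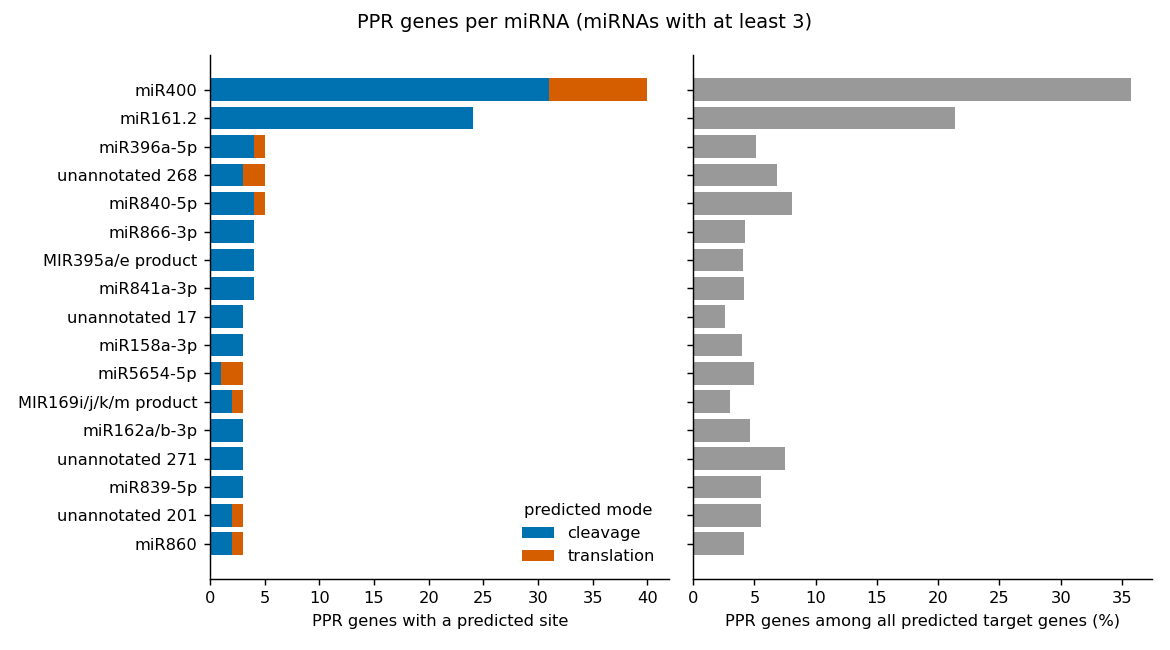
PPR genes with a predicted site for each of the 17 miRNAs that had at least 3 (left, number of genes, coloured by the mode of the best site) and the share of PPR genes among all predicted target genes of the same miRNA (right, percent). miR400 with 40 genes and miR161.2 with 24 stand far above the next, which have 5.

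Most of the closest matches also belonged to these 2 miRNAs. The lowest expectation of any PPR pair, 0, was that of miR400 on AT1G06580, and 15 of the 20 PPR pairs with expectation up to 2 belonged to miR400 or miR161.2. The other 5 pairs were 3 of unannotated 17, 1 of miR866-3p and 1 of miR396a-5p. On genes that were PPR in neither source, miR400 had 0 of 50 pairs and miR161.2 0 of 75 pairs at an expectation up to 2, against 7 of 40 and 8 of 24 on PPR genes. Cleavage was predicted for 24 of 24 miR161.2 pairs and for 31 of 40 miR400 pairs. Over all PPR pairs cleavage made up 83.9%, close to the 82.7% of pairs on the remaining genes, and the median expectation was 4.0 in both.

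The sites that follow are all those of miR400 and miR161.2 in member genes with an expectation up to 1.5. Added to them is the site of the other miRNA in AT1G06580, AT1G62590 and AT1G63330, 3 of the genes that hold both. All sites are shown 5′ to 3′ with capitals for bases in a Watson-Crick pair with the miRNA and lower case for G:U pairs and mismatches.
AT1G06580 site of miR400: GUGACUUAUAAUACUCUCAUA
AT1G62720 site of miR400: GUGACUUAUAAUACUCUCAUu
AT3G22470 site of miR400: GUGACUUAUAgUAuUCUCAUA
AT1G62590 site of miR400: GUuACaUAUAAUACUCUCAUA
AT1G63330 site of miR400: GauACaUAUAAUACUCUCAUA
AT5G41170 site of miR161.2: AaUCACUUUCAAUGCAUUGA
AT1G62590 site of miR161.2: AGUCACgUUCAAUGCAUUGA
AT1G63330 site of miR161.2: AGUCACgUUCAAUGCAUUGA
AT1G63400 site of miR161.2: AGUCACUUUCAAcGCAUUGA
AT1G06580 site of miR161.2: AaUCACUUUCAgUGCuUUGA
The miR400 site of AT1G06580 lies at chr1:2014950-2014970 on the minus strand and is fully complementary. AT1G06580 and AT1G62720 are known as targets of miR400 under the names PPR1 and PPR2. The AT1G62720 site, at chr1:23228516-23228536 on the plus strand, has expectation 1.0, as has that of AT3G22470, at chr3:7966750-7966770 on the minus strand. RefSeq names AT1G62720 NG1, a gene known for a role in seed germination. The best miR161.2 sites in member genes, with expectation 1.0, were those of AT5G41170 at chr5:16479684-16479703 (minus strand), AT1G62590 at chr1:23178190-23178209 (minus strand) and AT1G63330 at chr1:23490604-23490623 (plus strand). The last 2 have the same letters. AT1G63400 followed at 1.5, at chr1:23508309-23508328 on the plus strand. The added sites are weaker, with expectation 2.0 for miR400 in AT1G62590 and AT1G63330 and 3.0 for miR161.2 in AT1G06580. Genes that only the reference annotates as PPR are not shown. Among them, miR161.2 had sites at 0.5 in AT1G63150, 1.0 in AT1G63630 and 1.5 in AT1G63230. miR400 had a site at 1.0 in AT4G19440.

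All miR400 and miR161.2 sites of member genes lay in coding sequence and in a fixed codon register. miR400 had 56 PPR sites at distinct places, since 13 of its 40 genes held more than 1, and miR161.2 had 27. All 56 miR400 sites were coding and began on base 1 of a codon, and all 27 miR161.2 sites were coding and began on base 3. Sites of the other miRNAs were coding in 127 of 156 cases, and of these 34.6% began on base 1, 26.8% on base 2 and 38.6% on base 3. In 22 further genes that only the reference annotates as PPR, 30 of 31 coding miR400 sites began on base 1, and in 13 such genes 15 of 15 miR161.2 sites began on base 3. In genes that were PPR in neither source, 19 of 52 miR400 sites were coding, 13 of them beginning on base 1. For miR161.2 in such genes, 47 of 74 sites were coding, 28 of them beginning on base 3.

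The bases that varied between genes lay mostly at base 3 of codons. Over the best miR400 site of each of 40 genes, the commonest base had a mean share of 89.6% at codon base 1, 91.1% at base 2 and 67.9% at base 3. Over 24 miR161.2 genes the values were 89.3%, 87.5% and 73.8%. Sites enter the sheet for their complementarity, so these shares describe predicted sites and not the gene family. Pairing to miR400 was complete in every gene at positions 2 and 5 of the miRNA, and to miR161.2 at positions 3 and 4. miR400 sites had most mismatches opposite position 1, in 17 of 40 genes, and as many opposite position 19, while position 4 was a G:U pair in 19. In miR161.2 sites the end of the miRNA paired least, with mismatches opposite position 20 in 9 of 24 genes.

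**Figure D2:**
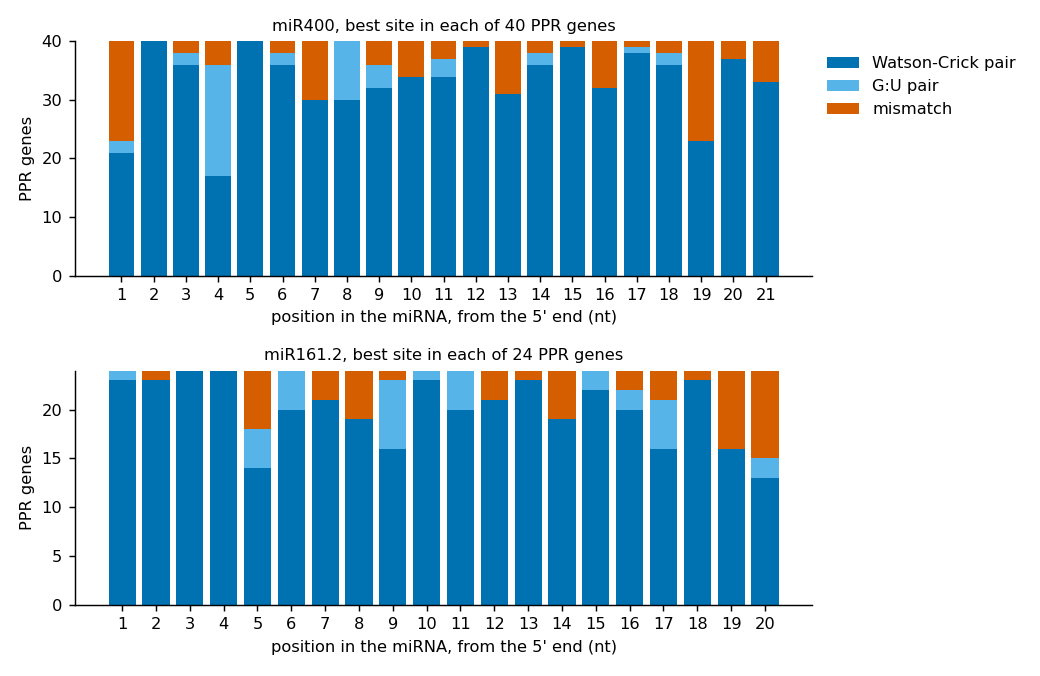
Number of PPR genes whose best site forms a Watson-Crick pair, a G:U pair or a mismatch at each position of miR400 (top, 40 genes) and miR161.2 (bottom, 24 genes), positions counted from the 5′ end of the miRNA. Positions 2 and 5 of miR400 and 3 and 4 of miR161.2 are paired in every gene.

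Genes with both sites held them at a repeated distance. Of the 24 PPR genes of miR161.2, 16 also had a miR400 site, which is 66.7% of the miR161.2 genes, and the same 16 are a smaller share of the 40 miR400 genes. In 12 of these 16 genes a miR400 site began exactly 211 nt after a miR161.2 site, which is 2 repeats of 105 nt, the length of 35 codons, plus the 1 nt between the registers. They were AT1G06580, AT1G12775, AT1G62590, AT1G62910, AT1G62914, AT1G63080, AT1G63330, AT1G63400, AT3G16710, AT3G22470, AT5G16640 and AT5G41170. With that 1 nt taken off, 26 of 31 pairs of a miR161.2 and a miR400 site were a whole number of 105 nt apart. Sites of the same miRNA in 1 gene were spaced alike, with 14 of 19 pairs of miR400 sites and 3 of 3 pairs of miR161.2 sites a whole number of 105 nt apart. In AT1G62590 the miR161.2 sites began at bases 990 and 1095 of the coding sequence and the miR400 sites at bases 1201 and 1726. AT1G63330 and AT1G63080 had sites at the same 4 distances. Of the 4 genes without a miR400 site at 211 nt, AT1G09900 had one 3 whole repeats on, at 316 nt. The other 3 had no such pair a whole number of repeats apart. AT1G63070, at 109 nt, and AT2G16880, at 214 nt, were each 3 nt off, and AT5G14770 had its first miR400 site 496 nt after the miR161.2 site.

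**Figure D3:**
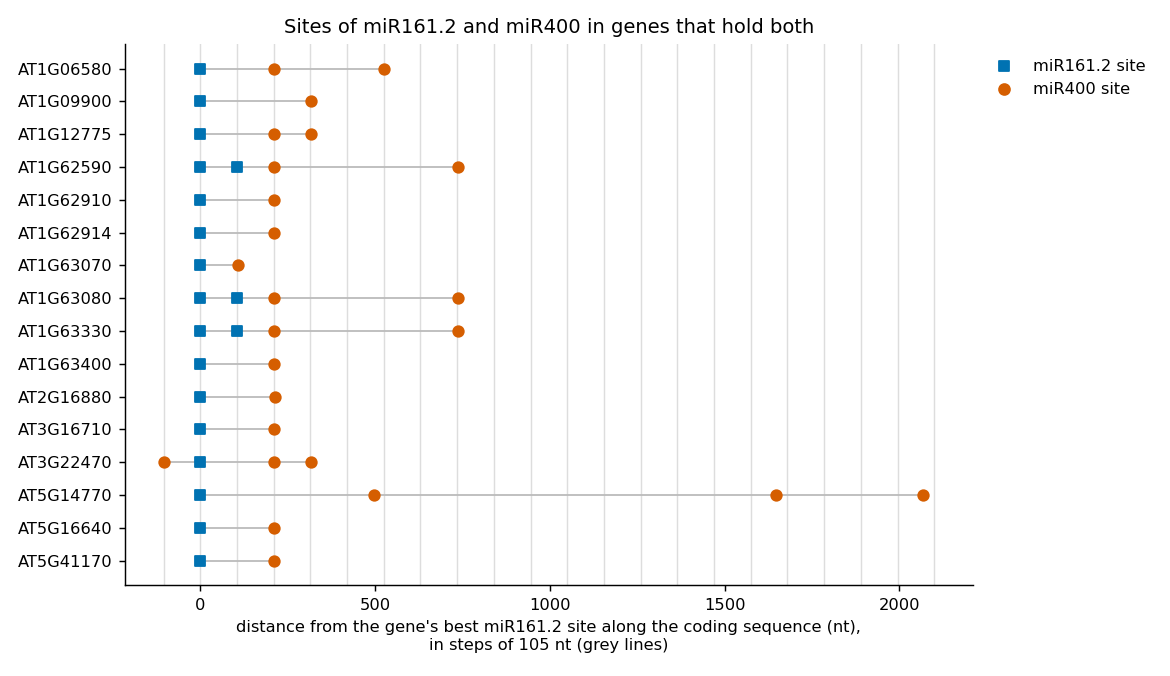
Predicted miR161.2 sites (squares) and miR400 sites (circles) in the 16 PPR genes that hold both, as distance in nt along the coding sequence from the gene's best miR161.2 site, with grey lines every 105 nt. In 12 genes a miR400 site stands at 211 nt.

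Part of these genes sat close together on chromosome 1. Between 23 and 24 Mb of chromosome 1 lay 7 of the 16 genes with both sites (43.8%), 10 of the 40 miR400 genes and 8 of the 24 miR161.2 genes. Of the other 9 genes with both sites, 3 lay elsewhere on chromosome 1 and 6 on chromosomes 2, 3 and 5. In the same stretch lay 2 of the 88 member genes with neither site (2.27%) and 22 of the 492 PPR genes of the reference (4.47%). The stretch was chosen after its genes were seen. Related PPR genes in tandem share sequence, so that their sites are not independent of each other.

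Most member genes had a single miRNA. Of the 136, 86 had a site for 1 miRNA, 34 for 2, 10 for 3 and 6 for 4 to 6. AT1G12775 had 6, namely miR161.2, miR823, miR842, miR400, miR5654-5p and unannotated 268, none with an expectation under 3.5. AT1G06580 had 5, of which miR400 was the best at 0, miR161.2 and unannotated 270 followed at 3.0, and its miR842 site lay in the 3′ UTR. AT5G41170, AT1G62910, AT1G63080 and AT4G14190 had 4 each. In AT5G41170 miR161.2 and miR400 were joined by the miR156 products, which are otherwise known for SPL transcription factor mRNAs. Outside the leaders' genes the best sites were those of miR866-3p in AT2G22070 and of unannotated 17 in AT1G64430, both at 1.5.
AT2G22070 site of miR866-3p: auUUCAAAGAuGGgUUUUGU
AT1G64430 site of unannotated 17: cAUaCAUCAUCAUCAUCAUu
The first is coding, at chr2:9385922-9385941 on the plus strand, and begins at base 2321 of a coding sequence of 2361 bases. The second is in the 3′ UTR at chr1:23936391-23936410 on the plus strand and pairs through a repeat of 3 bases. The sequence of unannotated 17 matched the genome at 8 places.

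PPR genes with textbook names were fewer. From a list of 79 symbols, 69 were found in the reference, and 34 symbols, which stand for 33 genes, had a predicted site. The sheet described 12 of these genes as PPR. Among them RFL9 (AT1G62910), which acts in the processing of a mitochondrial ribosomal protein transcript, had sites for miR161.2 at 2.0 and miR400 at 2.5. MRL1, needed for the chloroplast rbcL mRNA, and PNM1, found in mitochondria and nucleus, had miR161.2 sites at 3.5 and 3.0. The editing factors MEF3, MEF11, MEF29, OTP87 and RARE1 had sites of expectation 3.5 to 5.0, none for miR400 or miR161.2. RNA PROCESSING FACTOR genes, which trim 5′ ends of mitochondrial transcripts, were mostly described in other words and so were not members. RPF2, RPF3 and RPF6 each had a miR400 site at 2.0 and a miR161.2 site at 2.0 to 3.0, RPF1 had a miR161.2 site at 4.0 and RPF5 a miR400 site at 5.0. GUN1, which acts in signalling from plastid to nucleus, had a miR400 site at 3.5.

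The rule on descriptions missed other PPR genes too. Of the 492 PPR genes of the reference, 226 had a predicted site, including all 136 members, and 90 were described otherwise, 80 of them as tetratricopeptide-like. These 90 had 139 pairs, of which 36 (25.9%) were on the same 5 leading miRNAs. Together with them, miR400 had a site in 62 reference PPR genes and miR161.2 in 37. In 3 other families the shares were 6.96% to 7.69%. Of tetratricopeptide genes that are not PPR, 5 of 65 pairs (7.69%) were on the 5 miRNAs, of mTERF genes, which encode organellar nucleic acid binding proteins, 1 of 14 (7.14%), and of NB-ARC immune receptor genes 8 of 115 (6.96%). No gene of the MORF editing family had a site. These shares were not tested against each other.

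Levels of the 2 leading miRNAs were far apart. Raw counts of miR400 were 140, 108 and 109 in the Col-0 libraries, against 96, 158 and 173 in those of ein2-1. As TMM-scaled CPM, counts per fixed total on a scale that sets libraries equal on the bulk of their miRNAs, Col-0 had 124, 149 and 145 and ein2-1 had 96.8, 109 and 164. The genotypes overlapped, with 1 ein2-1 library above and 2 below all of Col-0. The mean was 139 ± 13.6 in Col-0 and 123 ± 36.0 in ein2-1 (SD, n = 3 each), a log2 fold change of -0.17 (SE 0.25) that did not pass (edgeR, adjusted p = 0.537). The sign of this value depends on the scaling, as it was -0.88 with library-size scaling (adjusted p = 0.0065) and 0.24 with totals that leave out the most abundant miRNA (adjusted p = 0.287).

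miR161.2 fell in ein2-1. Its Col-0 libraries had raw counts of 12379, 7686 and 8308, against 5980, 8607 and 5838 in ein2-1. The CPM were 10942, 10628 and 11035 for Col-0, against 6027, 5915 and 5541. Every ein2-1 library was below every Col-0 library. The mean went from 10868 ± 213 to 5827 ± 255 CPM (SD, n = 3 each), or -0.90 as log2 fold change (SE 0.14; adjusted p = 6.3e-05 by edgeR). It passed under each alternative run, between -0.44 and -1.59. In bulk tissue fewer cells that make a miRNA and less of it per cell cannot be told apart. The authors' deposited table gave log2 fold changes of -0.03 for miR400 and -0.74 for miR161.2.

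The ratio between both needs no scaling between libraries. There were 11.3, 14.1 and 13.1 miR400 reads per 1000 miR161.2 reads in Col-0, against 16.1, 18.4 and 29.6 in ein2-1, with no overlap. The means were 12.8 ± 1.39 and 21.3 ± 7.27 (SD, n = 3 each). An exact two-sided permutation test gave p = 0.1, the smallest that 3 against 3 allows. This ratio was chosen after the values were seen. miR161.2 ranked 12th and miR400 39th of 142 sequences by mean CPM.

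**Figure D4:**
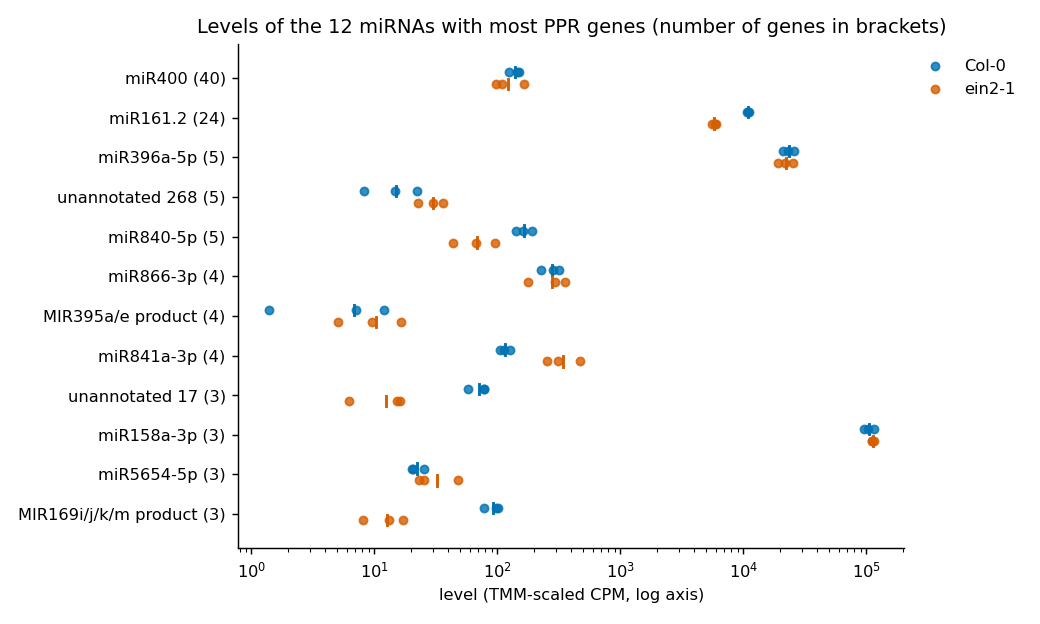
Level in each library (points, TMM-scaled CPM on a log axis) and mean (short vertical line) of the 12 miRNAs with most PPR genes, Col-0 in blue and ein2-1 in orange, with the number of PPR genes in brackets. miR161.2 is separated between genotypes and miR400 is not.

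The other leading miRNAs moved in different directions. miR840-5p fell, from CPM of 143, 163 and 193 in Col-0 to 43.3, 66.7 and 94.9 in ein2-1, or -1.28 as log2 fold change (SE 0.28, adjusted p = 0.0011). All of its 5 PPR genes had weak sites, with expectation 4.0 or more. miR841a-3p, with 4 PPR genes, rose from 113, 106 and 126 to 253, 311 and 469 CPM, a log2 fold change of 1.58 (SE 0.25, adjusted p = 8.1e-05). Neither miRNA had an overlap between the genotypes.

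Abundant members went in both directions or did not pass. Of 6 members with a mean of at least 10000 CPM over all libraries, a limit set after the values were seen, 3 were higher in ein2-1, 1 was lower and 2 did not pass. miR166-3p, shared by the genes MIR166a to MIR166g, known for HD-ZIP III transcription factor mRNAs and with 2 PPR genes, rose from 113034 to 127949 CPM in Col-0 to 227572 to 271683 in ein2-1 (log2 fold change 1.08, SE 0.13, adjusted p = 5.2e-06). miR165a/b-3p (0.74) and miR159a (0.60) were also higher, but with library-size scaling neither passed, at 0.07 and -0.11, nor did they with 1 entry per distinct sequence. miR167a-3p fell (log2 fold change -1.07, SE 0.17, adjusted p = 7.0e-05). The 2 that did not pass are among the 12 leading miRNAs. miR396a-5p, known for GRF growth factor mRNAs, had 21162 to 25806 CPM in Col-0 and 19255 to 25320 in ein2-1 and did not pass (log2 fold change -0.08, SE 0.15, adjusted p = 0.654). miR158a-3p, the most abundant of the 12 leading miRNAs, had 95607 to 114967 and 111689 to 115615 CPM and did not pass either (log2 fold change 0.11, SE 0.12, adjusted p = 0.419). The direction of both turned with the scaling, and both then passed. With library-size scaling miR396a-5p was at -0.77 and miR158a-3p at -0.58 (edgeR, adjusted p = 5.0e-05 and 2.9e-05). With totals without the most abundant miRNA they were at 0.36 and 0.56 (edgeR, adjusted p = 0.022 and 0.0003). The far scarcer miR866-3p had a log2 fold change of -0.00 (SE 0.26, adjusted p = 0.993), and its values overlapped as well.

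Scarce members gave less certain values. Counts of unannotated 268 were 25, 6 and 11 for Col-0, against 30, 33 and 38 for ein2-1, a log2 fold change of 0.89 (SE 0.35, adjusted p = 0.033). That call was lost without ein2-1 replicate 1 or without ein2-1 replicate 3 (0.86 and 0.71, adjusted p = 0.052 and 0.085), and under DESeq2, library-size scaling and 1 entry per distinct sequence. unannotated 17 had counts of 65, 56 and 59 for Col-0, against 16, 9 and 16, and fell by 2.54 on the log2 scale (SE 0.34, adjusted p = 2.0e-05). The MIR169i/j/k/m product fell by 2.82 (SE 0.30, adjusted p = 2.9e-06), with counts of 88, 70 and 76 against 8, 19 and 18. The MIR395a/e product had counts of 1 to 24 and was not tested, and miR5654-5p did not pass (0.53, SE 0.33, adjusted p = 0.159).

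Over all miRNAs with a PPR site, 76 of 89 were abundant enough to be tested, and none of the other 13 reached more than 31 counts in a library. Of the 76, 24 were higher in ein2-1 (31.6%) and 24 lower (31.6%), while 28 did not pass. Among all 118 sequences tested, 34.7% were called higher and 32.2% lower. The shares among PPR-site miRNAs were near that background, and their median log2 fold change, 0.06, equalled that of all sequences tested. Genotypes did not overlap in 24 higher and 23 lower members, against 35.6% and 31.4% of all sequences tested. The split depends on scaling. With library-size scaling 14 members were higher and 36 lower, beside 17.8% and 50.0% of all sequences. With totals without the most abundant miRNA they were 39 and 22, beside 49.2% and 27.5%, and with 1 entry per distinct sequence 15 and 24, beside 20.8% and 31.7%.

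**Figure D5:**
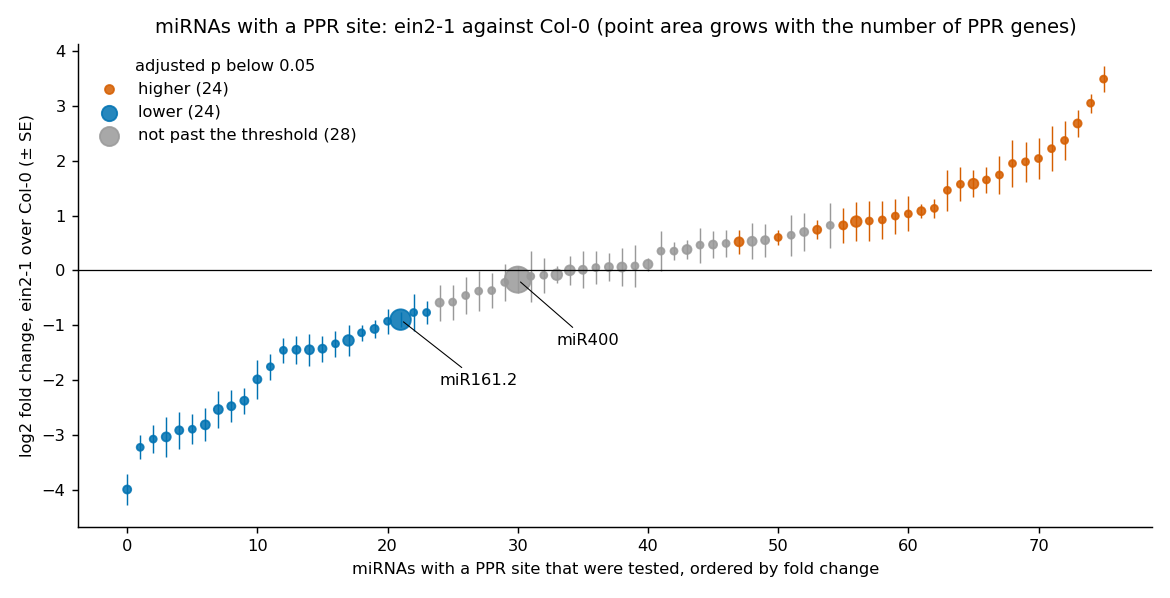
Log2 fold change (ein2-1 over Col-0, with SE) of the 76 tested miRNAs with a PPR site, in ascending order, coloured by whether adjusted p was below 0.05 and drawn larger for more PPR genes. miR161.2 lies among the 24 that were lower and miR400 among the 28 that did not pass.

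The largest changes belonged to miRNAs with 1 to 3 PPR genes. miR398a-5p fell by 4.0 on the log2 scale (SE 0.28, adjusted p = 5.7e-08), from 967 to 1017 CPM in Col-0 to 35.1 to 84.5 in ein2-1. The log2 fold change was -3.23 for miR779.2, -3.08 for miR8184, -3.04 for miR860 and -2.92 for the MIR848 product. Of rises, miR399b/c-3p, a miRNA of phosphate starvation, had the largest at 3.49 (SE 0.24, adjusted p = 4.8e-08), from 37.2 to 48.6 CPM to 418 to 543. miR160a/b/c-5p, known for auxin response factor mRNAs, rose by 3.05, miR398b/c-3p by 2.68, miR5998a/b by 2.37 and unannotated 61 by 2.22. Genotypes did not overlap for any of these 10, and their 15 PPR pairs are a small part of the 211.

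Counted over sites, the picture follows the leaders. Of the 211 PPR pairs, 67 (31.8%) were on miRNAs that were lower, 37 (17.5%) on miRNAs that were higher, 88 (41.7%) on miRNAs that did not pass and 19 on miRNAs not tested. On genes that were PPR in neither source the shares were 28.8% lower and 30.0% higher. miR161.2 alone gave 24 of the 67 and miR400 gave 40 of the 88. Without these 2 miRNAs, 29.3% of 147 PPR pairs were on lower and 25.2% on higher miRNAs, beside 28.4% and 30.4% on the remaining genes. Of the 136 genes, 52 (38.2%) had a site for a lower miRNA and none for a higher one, 27 (19.9%) the reverse, 7 had both and 50 neither. Among 7574 genes that were PPR in neither source these shares were 29.2% and 29.0%. The differences between these shares were not tested. With sites up to an expectation of 3, 40 genes and 16 miRNAs remained, of which 5 were lower, 3 higher, 6 did not pass and 2 were not tested. Of all sequences tested, 32.2% were lower and 34.7% higher. The 5 lower ones were miR161.2, unannotated 17, the MIR848 product, miR171b-5p and miR8184, and the 3 higher ones miR847, unannotated 268 and unannotated 270.

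Genes and miRNAs of the route to secondary small RNAs were read from a fixed list. Of 13 genes found in the reference, 7 had a site. AGO1, the protein that miRNAs guide to their targets, had its best site for miR168a/b-5p, at an expectation of 3.0, and miR168a/b-5p fell (log2 fold change -1.14, SE 0.15, adjusted p = 1.1e-05). DCL4, which cuts secondary small RNAs, had sites for miR823 and unannotated 263 at 3.5, and RDR6 and SGS3, which make their double-stranded precursors, had sites at 5.0 for untested sequences. Of the TAS loci on the list, TAS1A, TAS1B, TAS1C, TAS2 and TAS4 had none among the pairs used here. Sites of miRNAs missing from the table, miR173 and miR828 among them, could not appear in these pairs. The absence therefore says nothing about such sites. TAS3A was not found in the reference under that symbol, so it was not looked up. Of 12 miRNAs listed, 7 were in the table, and miR161.1, miR173, miR828, miR403 and miR472 were not. miR390a/b-5p, which acts on TAS3, fell by 1.74 (SE 0.20, adjusted p = 4.9e-06) and miR393a/b-5p rose by 2.97 (SE 0.25, adjusted p = 3.2e-07), neither with a PPR site. miR162a/b-3p, with 3 PPR genes, did not pass at 0.38 (SE 0.17, adjusted p = 0.062), although its 3 ein2-1 libraries were above all of Col-0, and it passed when any single Col-0 library was left out (0.52 to 0.61).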

How the data were processed

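Small RNA counts of 6 libraries were analysed. Per the submitters' processing notes, cutadapt was used and TAIR10 was the genome. The sources used here name neither aligner nor counting tool. The deposited values are raw counts per miRNA entry, whose totals over entries were 559411 to 1882664 per library, and 178 entries held 142 distinct sequences with identical counts within each. The authors also deposited log2 fold changes with p-values and an FDR, and a target sheet with columns as psRNATarget writes them, per the file headers, whose expectation is a score of at most 5. The 23944 rows used here were reduced to 1 pair per gene and distinct sequence. A lower count means a wider error, and without molecular identifiers reads may be copies of 1 molecule.

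Members, lists and tests were chosen with earlier results of these data known. PPR was matched as a word, which departs from the wording fixed earlier, where it also matched inside suppressor. Sequences were named, and the 434 site rows placed, by exact match to TAIR10.1 with RefSeq annotation. Counts were tested with edgeR 4.0.16 (R 4.3.3, quasi-likelihood, TMM, filterByExpr, two-sided, Benjamini-Hochberg over entries, threshold 0.05), genotype the only term. All 178 entries were given to this fit, so repeated entries of a sequence weighed on the totals, the scaling and the adjustment. Each distinct sequence was counted once only afterwards. The fit with 1 entry per distinct sequence is given as an alternative and called fewer members higher. The test was checked on simulated data of distinct sequences, with the same dispersion throughout and as many rises as falls. That check covered neither repeated entries nor changes in most sequences, so it does not vouch for the calls under those conditions. Adjusted p-values in the text come from this fit unless another tool is named. The permutation test used scipy 1.17.1.

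Named miRNAs are the 12 with most PPR genes, those with a site of expectation up to 2, the 5 largest rises and falls past the threshold and a list of 12 known miRNAs. Named genes are the 12 with most miRNAs, those with a site up to 1.5 and the textbook list. Genes cited for their reference annotation or for spacing were named after their values were seen. The libraries are biological replicates according to the design text.

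Alternatives were RLE and library-size scaling, totals without the most abundant miRNA, DESeq2 1.42.0, limma-voom 3.58.1, other filters, 1 entry per distinct sequence, a replicate block, an adjusted p of 0.01, expectation limits of 4 and 3, other wordings of the rule and each library left out. Chosen after seeing the data were the rule as written, PPR genes by reference annotation, RLE scaling with 1 entry per sequence, and the same 5 leading miRNAs at each expectation limit. Abundant miRNAs outside the naming rule were named after their values were seen. Tables and figures used Python 3.11.15, pandas 2.3.3, numpy 2.4.6 and matplotlib 3.10.9.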

Additional observations from a re-analysis of the deposited data

How the results depend on the processing

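The median log2 fold change of all sequences tested was 0.06 with TMM, -0.64 with library-size scaling and 0.49 with totals without the most abundant miRNA, so that the direction of small changes is relative to the scaling. Members called higher numbered 14, 39 and 15 (24 in the text) with library-size scaling, totals without the most abundant miRNA and 1 entry per distinct sequence, and 10 and 3 with expectation limits of 4 and 3, where fewer miRNAs count. Those called lower numbered 5 with a limit of 3. Leaving out each library gave 19 to 31 higher, 22 to 24 lower and 46 to 58 without overlap. With library-size scaling the log2 fold change was -0.88 for miR400, -0.17 for miR5654-5p, -0.58 for miR158a-3p and -0.31 for miR162a/b-3p. With totals without the most abundant miRNA it was 0.24 for miR400, 0.36 for miR396a-5p and 0.41 for miR866-3p. Without a filter it was 0.08 for miR396a-5p and 0.14 for miR866-3p, and with 1 entry per sequence -0.01 for miR158a-3p. Across left-out libraries the values ran from -0.42 to 0.05 for miR400, -0.93 to -0.71 for miR161.2, -0.19 to 0.16 for miR396a-5p and -0.22 to 0.24 for miR866-3p. miR158a-3p passed without Col-0 replicate 1 (0.35, adjusted p = 0.025), and miR162a/b-3p passed when a single Col-0 library, whichever it was, was dropped (0.52 to 0.61). The cause was not tested. Of 25 named miRNAs tested, 18 kept their direction and side of the threshold in every alternative that tested them. Among these, miR161.2 did so in 16 alternatives and unannotated 61 in 14. With expectation limits of 4 and 3, the 5 miRNAs that lead at each limit held 51.5% and 78.8% of pairs and reached 56.4% and 75.0% of genes. The 5 named in the text held 50.0% and 69.2% and reached 53.2% and 65.0%, and at a limit of 3 there were 40 genes with 94.2% cleavage pairs. By reference annotation there were 226 genes. Same-numbered libraries correlated at 0.21, -0.04 and 0.17 in their deviations, so the numbers were not taken as pairs. A replicate block gave 25 higher and 23 lower, with miR400 at -0.21.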
